A study of Mus musculus with 3 samples.

Results

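Prox1 was followed as 1 of the 32285 genes counted in 3 single-cell RNA libraries of mouse intestinal organoids, small epithelial bodies grown in a gel. It was read in 4 sets of barcodes, where a barcode marks 1 droplet and usually 1 cell. The first set was the 3195 barcodes found in all 3 libraries, taken with the counts of the WT library. The other 3 sets were barcodes of 1 library only with at least 10000 unique molecular identifiers (UMIs, each tagging 1 captured RNA molecule) and at most 20% of UMIs from the 13 mitochondrial genes. These deep sets held 1208 of 11411 WT barcodes, 2161 of 10706 LApc barcodes and 1931 of 12068 LApcL barcodes. All organoids came from C57BL/6 mice that were given 2 doses of 2 mg tamoxifen at 7 to 8 weeks of age, WT mice included, and were dissociated on day 6 of passage 3. LApc cultures derived from Lgr5-CreERT2;Apc fl/fl mice and LApcL cultures from mice that carried Lef1 fl/fl in addition. The Cre is driven from the Lgr5 locus, so Apc, a brake on Wnt signaling, and Lef1, a Wnt pathway transcription factor, were to be deleted only in Lgr5+ stem cells and their progeny. Whether the WT mice of these organoids carried the Cre is not stated. In the paper's experiment on healthy intestine, the WT controls were Lgr5-EGFP-IRES-CreERT2 mice. By the labels, analysis followed tamoxifen by 21 days for WT and LApcL and by 29 days for LApc. The paper's organoid methods differ, with crypts of LApc and LApcL mice isolated at most 21 days after tamoxifen. Each genotype had 1 library here, and the number of mice behind each culture is not given in the labels. No difference between genotypes could therefore be tested, and genotype, culture and, for LApc, time cannot be told apart.

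Prox1 encodes a homeobox transcription factor related to Drosophila prospero. In endothelium it sets and maintains lymphatic identity, and its loss returns lymphatic cells towards a blood vessel state. In the intestine it is known from hormone-producing enteroendocrine cells and as a β-catenin–TCF target that is switched on when Apc is lost. Prox1 therefore has separate roles in the cell kinds that these libraries held.

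The libraries held 87185429 (WT), 118867221 (LApc) and 112057783 (LApcL) UMIs. Shared barcodes made up 26.5% to 29.8% of each library and were shallow, with medians of 1483 to 2176 UMIs against 32584 to 38073.5 in the deep sets. The samples were labelled as intestinal organoids, yet Pecam1, an endothelial adhesion molecule, stood at 1050 to 1076 CPM (counts scaled to 1000000 UMIs of the set) in the shared barcodes of every library and at 1.60 CPM or less in the deep sets. Epcam, the general epithelial adhesion molecule, stood at 1192 to 1967 CPM in the deep sets and at 2.81, 9.18 and 14.8 CPM in the shared barcodes by WT, LApc and LApcL counts. The shared barcodes were therefore kept apart from the organoid cells throughout, and how they came to be in every library was not tested. In the WT library they carried 93.6% of all 3710 Prox1 UMIs, against 4.88% of 48351 in LApc and 14.7% of 18152 in LApcL. A WT Prox1 level taken over all barcodes would thus come mainly from these barcodes.

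Prox1 (ENSMUSG00000010175) lies on the reverse strand of chromosome 1 at 190118035 to 190170714 (GRCm38, GENCODE annotation). The antisense gene Prox1os (ENSMUSG00000079045) runs the opposite way from 190170296 to 190217276, and 419 bases of the gene bodies overlap at the start of Prox1. RefSeq lists 2 start sites, and the promoter of each is shown because Prox1 differed between Apc genotypes and because Wnt signaling acts through TCF and LEF factors, which bind the letters CTTTGA or CTTTGT. Each promoter runs from 250 bases before to 50 bases after a start site, 5′ to 3′ on the gene's strand, with matches to either motif on either strand in capitals.
Upstream start, chr1:190170778-190171077: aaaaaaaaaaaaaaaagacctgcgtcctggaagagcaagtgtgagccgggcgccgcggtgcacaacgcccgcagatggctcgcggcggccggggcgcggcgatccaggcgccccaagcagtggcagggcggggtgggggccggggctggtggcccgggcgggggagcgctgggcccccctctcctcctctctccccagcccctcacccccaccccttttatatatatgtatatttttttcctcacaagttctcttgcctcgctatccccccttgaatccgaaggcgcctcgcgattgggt
Downstream start, chr1:190169466-190169765: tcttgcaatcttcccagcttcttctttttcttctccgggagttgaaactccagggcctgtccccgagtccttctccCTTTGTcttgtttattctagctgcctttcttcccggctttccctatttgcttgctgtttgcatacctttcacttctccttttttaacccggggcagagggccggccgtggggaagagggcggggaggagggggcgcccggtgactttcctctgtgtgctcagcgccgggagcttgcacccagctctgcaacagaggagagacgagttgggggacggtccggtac
The upstream promoter held 0 matches and the downstream promoter held 1, a CTTTGT. Of 32851 mouse promoters of the same length, 31.2% held at least 1 of the motifs and 18.7% held CTTTGT, so the match is a common one. It is a description of letters, and binding was not measured.

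Prox1 was near absent from WT organoid cells and abundant in LApc and LApcL cells and in part of the shared barcodes. Prox1 UMIs numbered 122 in the WT deep set, 38743 in that of LApc and 12274 in that of LApcL. With exact 95% Poisson intervals, these were 2.50 CPM (2.07 to 2.98), 426 CPM (422 to 431) and 152 CPM (150 to 155). Here and throughout, intervals cover counting error only, and variation among mice or cultures is not in them. Intervals of CPM and of its ratios also leave out variation from cell to cell. Shared barcodes had 3473 Prox1 UMIs, or 424 CPM (410 to 439), so their interval overlapped that of LApc. The other neighbours in the order of the 4 sets were separated by more than their intervals.

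The log2 ratio of CPM + 1 was 6.93 (6.75 to 7.12, exact conditional binomial interval) for LApc against WT, and the level was 171-fold (143 to 206) higher in LApc as a ratio of CPM. Folds here and below are ratios of CPM without a pseudocount, so they are larger than the log2 ratios imply where a level is low. Among 9055 genes with at least 10 CPM in either set, 15 had a higher ratio. For LApcL against WT it was 5.46 (5.27 to 5.64), or 61.1-fold (51.1 to 73.6), and 41 of 9030 genes had a higher ratio. Both comparisons use the same WT cells. For LApcL against LApc it was -1.48 (-1.51 to -1.45), a level 2.80-fold (2.74 to 2.85) higher in LApc, and 163 of 8726 genes had a lower ratio. By the labels, the days after tamoxifen also differed between LApc and LApcL. Mitochondrial content moved with genotype as well, with median shares of 10.5% in WT, 5.64% in LApc and 6.39% in LApcL, and its part in the result was not tested. At a limit of 10% mitochondrial UMIs, the levels were 4.36, 445 and 159 CPM.

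**Figure D1:**
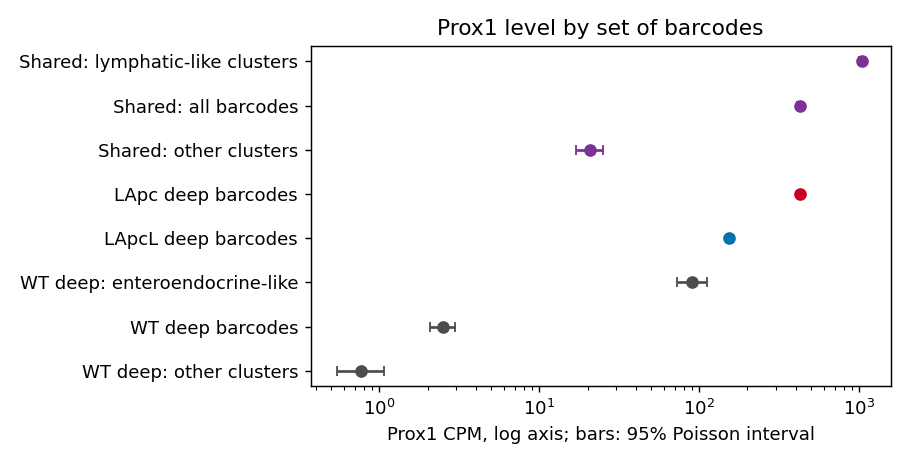
Prox1 level in CPM on a log axis, by set of barcodes, with exact 95% Poisson intervals as bars (smaller than the point where not seen). LApc (426 CPM) sits beside the shared barcodes as a whole (424 CPM), the lymphatic-like clusters of the shared barcodes are highest (1037 CPM), and WT cells outside the enteroendocrine-like cluster are lowest (0.772 CPM).

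The share of Prox1-positive cells was compared after each deep cell had been thinned to 10000 UMIs, so that depth was equal. At least 1 Prox1 UMI was present in 27 of 1208 WT cells, or 2.24% (1.48 to 3.24, exact Clopper-Pearson interval). In LApc, 1471 cells or 68.1% (66.1 to 70.0) were positive, and in LApcL 1089 cells or 56.4% (54.1 to 58.6). LApcL was thus lower than LApc by 11.7 percentage points (8.67 to 14.7 by combining the exact intervals). Without thinning the shares were 4.22%, 78.9% and 79.8%, and the order of LApc and LApcL was the reverse, within the interval of their difference.

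LApc and LApcL also differed in how much Prox1 a cell held. At equal depth the mean was 0.0331 UMIs per cell in WT, 5.11 in LApc and 1.79 in LApcL. Cells with 5 or more Prox1 UMIs made up 40.5% of LApc and 12.2% of LApcL cells, and cells with 10 or more made up 20.5% and 3.16%. The WT cells had at most 3. The highest counts were 45 in LApc and 31 in LApcL. Counts varied more than Poisson sampling alone would give, with a variance of 7.69 times the mean in LApc, 4.74 times in LApcL and 1.72 times in WT.

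**Figure D2:**
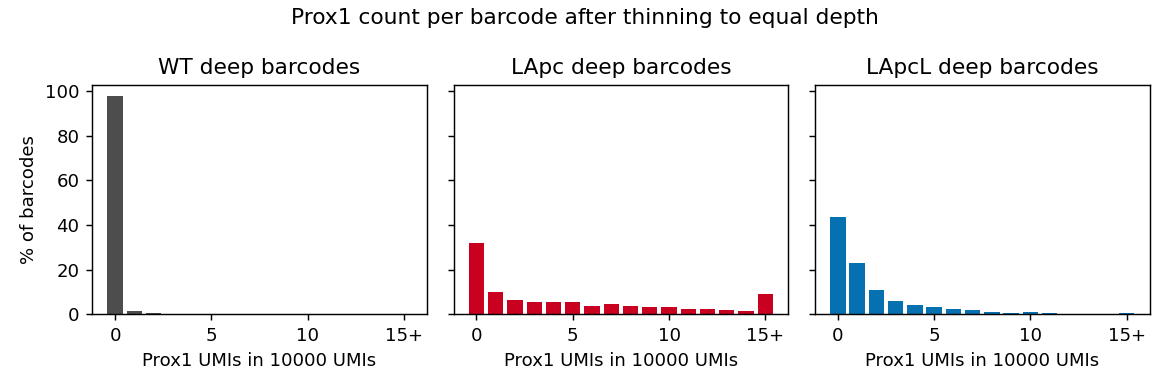
Percentage of deep barcodes (vertical axis) by their number of Prox1 UMIs after thinning to 10000 UMIs (horizontal axis, 15 and more pooled) in WT, LApc and LApcL. WT stands almost wholly at 0, 43.6% of LApcL and 31.9% of LApc cells are at 0, and the long right tail is heavier in LApc.

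Shallow shared barcodes allowed a comparison only at 1000 UMIs per barcode. At this depth 20.8% (19.3 to 22.4) of 2835 shared barcodes had a Prox1 UMI, with 360 shallower ones left out. The shares were 0.414% in WT, 32.9% in LApc and 14.1% in LApcL. Among shared barcodes outside the lymphatic-like clusters described next, counted in the LApc library itself, 2.17% (1.47 to 3.09) were positive at 1000 UMIs, with a median depth of 1288 UMIs before thinning against 34377 in deep LApc cells.

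Within the shared barcodes Prox1 was found almost wholly in clusters with lymphatic markers. The 3195 barcodes were clustered without Prox1 into 8 clusters. A cluster was called lymphatic-like when at least 3 of 9 lymphatic markers stood at 2-fold or more over the median cluster, each with over 3 UMIs, and no proliferation marker was among its 10 leading genes. This rule was set after the clusters had been seen, and Prox1 took no part in it. There were 3 such clusters, with 1098 barcodes and 97.1% of the Prox1 UMIs. Another cluster, of 10 dividing barcodes, had 4 of the markers raised but was left out for its proliferation markers and counted with the others. Their level was 1037 CPM (1002 to 1072), against 20.7 CPM (16.9 to 25.1) in the other 2097 barcodes, a 50.2-fold (41.2 to 61.7) difference and a log2 ratio of 5.58 (5.31 to 5.87). At 1000 UMIs, 54.3% (51.2 to 57.4) and 1.58% (1.06 to 2.27) were positive, with median depths of 2753 and 1878 UMIs before thinning. Lymphatic-like barcodes had 2.43-fold (2.35 to 2.52) more Prox1 by CPM than LApc cells and 6.80-fold (6.54 to 7.07) more than LApcL cells.

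The 3 lymphatic-like clusters differed from one another in Prox1. The cluster led by Marco, Mrc1 and Lyve1, all scavenger receptor or hyaluronan receptor genes, had 406 barcodes and 1488 CPM (1418 to 1561). The cluster led by Madcam1, an adhesion molecule for lymphocytes, had 171 barcodes and 921 CPM (845 to 1002). The cluster led by Ackr4, a scavenging receptor for chemokines, had 521 barcodes and 745 CPM (703 to 790). None of these intervals overlapped, but they leave out variation among barcodes, so they do not settle whether the clusters differ. Lower levels stood outside the group: 20.1 CPM in the one led by Ccl21a and Ackr1, with markers of high endothelial venules, 17.2 CPM in the capillary-marker cluster led by Col13a1 and Rgcc and 17.9 CPM in the stromal-marker cluster led by Mgp. Their intervals overlapped. A cluster of 10 dividing barcodes led by Top2a had 16 UMIs, or 272 CPM (155 to 441), and was left unnamed.

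The low Prox1 level outside the lymphatic-like clusters was like that of several other lymphatic genes. It was 1.99% of the level inside for Prox1, and the same quotient was 1.96% for Lyve1, 1.96% for Pdpn, 2.35% for Mmrn1, 1.78% for Stab2 and 1.05% for Reln. It was 3.50% for Thy1, 5.52% for Flt4, the receptor for the lymphatic growth factor Vegfc, and 27.3% for Fgl2. These markers, unlike Prox1, had served to define the clusters. Ccl21a, a chemokine also made by high endothelial venules, was higher outside, at 3108 CPM against 76.0 CPM.

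The same barcodes carried Prox1 in all 3 libraries. Of the shared barcodes, 942 were Prox1-positive in the WT library, 843 in LApc and 852 in LApcL. Positive in both WT and LApc were 719, which is 76.3% of the WT and 85.3% of the LApc positives, and the Pearson r of log2(count + 1) over the 3195 barcodes was 0.84. Levels in the lymphatic-like barcodes were 1037, 1019 and 1069 CPM by the WT, LApc and LApcL counts. These are therefore not 3 independent samples of lymphatic cells.

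In WT organoids Prox1 was concentrated in a few enteroendocrine-like cells. Clustering without Prox1 gave 9 WT clusters. The one led by Cck, Gcg and Chgb, hormone and secretory granule genes, had 37 cells but 85 of the 122 Prox1 UMIs, or 90.3 CPM (72.1 to 112). At equal depth 21 of its cells, or 56.8% (39.5 to 72.9), were positive. The other 1171 WT cells stood at 0.772 CPM (0.543 to 1.06) with 0.512% positive. Median depths before thinning were 24252 and 38453 UMIs.

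Among the other WT clusters, the one led by Spink4, Agr2 and Muc2, with markers of mucus-secreting goblet cells, had 11.3 CPM (6.04 to 19.4) in 32 cells. The stem-marker cluster led by Olfm4 had 1.52 CPM (0.785 to 2.65) in 219 cells. The remaining 6 clusters were at 0 to 0.525 CPM. In a longer list of leading genes than the one used elsewhere, 2 clusters had 2 or more enterocyte markers. The shorter list held at most 1 in either. Their 339 cells, taken here as an absorptive background, had 2 UMIs (0.137 CPM). At equal depth 0 of 339 were positive, which allows a share of up to 0.885% as 3 counts, or 1.08% by the exact interval. A further cluster with 1 enterocyte marker in that longer list had 4 UMIs (0.525 CPM), and 2 of its 183 cells, or 1.09%, were positive. Of the 27 Prox1-positive WT cells, 77.8% also held Chgb and 74.1% Chga, both granule protein genes, against 2.62% and 1.52% of the Prox1-negative cells.

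In LApc cells Prox1 was not confined to enteroendocrine cells. It was present in all 8 LApc clusters, from 46.3 CPM (43.3 to 49.5) to 1136 CPM (1119 to 1154), a 24.5-fold range. Shared barcodes outside the lymphatic-like clusters stood at 31.7 CPM (25.9 to 38.3) by LApc counts and at 20.7 CPM by WT counts, where the deep cells outside the enteroendocrine-like cluster had 0.772 CPM, so they do not give the level of free RNA in deep droplets. That level was not measured in LApc or LApcL. The highest cluster, led by Prss56, Chgb and Vim, had 443 cells, of which 98.0% were positive at equal depth, and 42.3% of all LApc Prox1 UMIs. Next came the cluster led by Npy, a neuropeptide gene, at 621 CPM in 345 cells, and the one led by Pla2g4c and Dkk2 at 519 CPM in 372 cells. The Paneth-marker cluster had 273 CPM in 35 cells. The cluster led by Ung and Slfn9, with the replication genes Cdc6 and Mcm4 also among its leading genes, had 197 CPM. The cluster led by mitotic genes (Cenpf, Ube2c) had 187 CPM. The lowest cluster, led by Ms4a10 and Plac8, had 404 cells and 23.8% positive. The LApc level was 4.72-fold that of the WT enteroendocrine-like cluster, and the LApcL level 1.69-fold. Enteroendocrine markers summed to 40.9 CPM over the LApc set against 1460 CPM over WT, and Chgb was found in 1.14% of LApc cells with 5 or more Prox1 UMIs. The 10 leading genes of the highest LApc cluster did hold 2 enteroendocrine markers, Chgb and Sct. Chgb stood at 69.1 CPM in that cluster and at 20661 CPM in the WT enteroendocrine-like cluster. Vim stood at 2946 CPM and 726 CPM in the same 2 clusters, and at 2.83 CPM or less in the other WT clusters.

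LApcL clusters were more even. All 7 carried Prox1, from 115 CPM (101 to 129) to 353 CPM (341 to 366), a 3.08-fold range. The highest was led by Ceacam10, Sct and Ifitm1 and had 316 cells with 73.1% positive. The cluster led by Egln3, an oxygen-sensing enzyme gene, had 147 CPM in 477 cells, the mitotic cluster 129 CPM in 307 cells and the cluster led by Ly6g and the replication gene Cdc6 116 CPM in 413 cells. The lowest was the Paneth-marker cluster with 84 cells. Clusters were made in each library separately, and their correspondence between libraries was not tested.

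**Figure D3:**
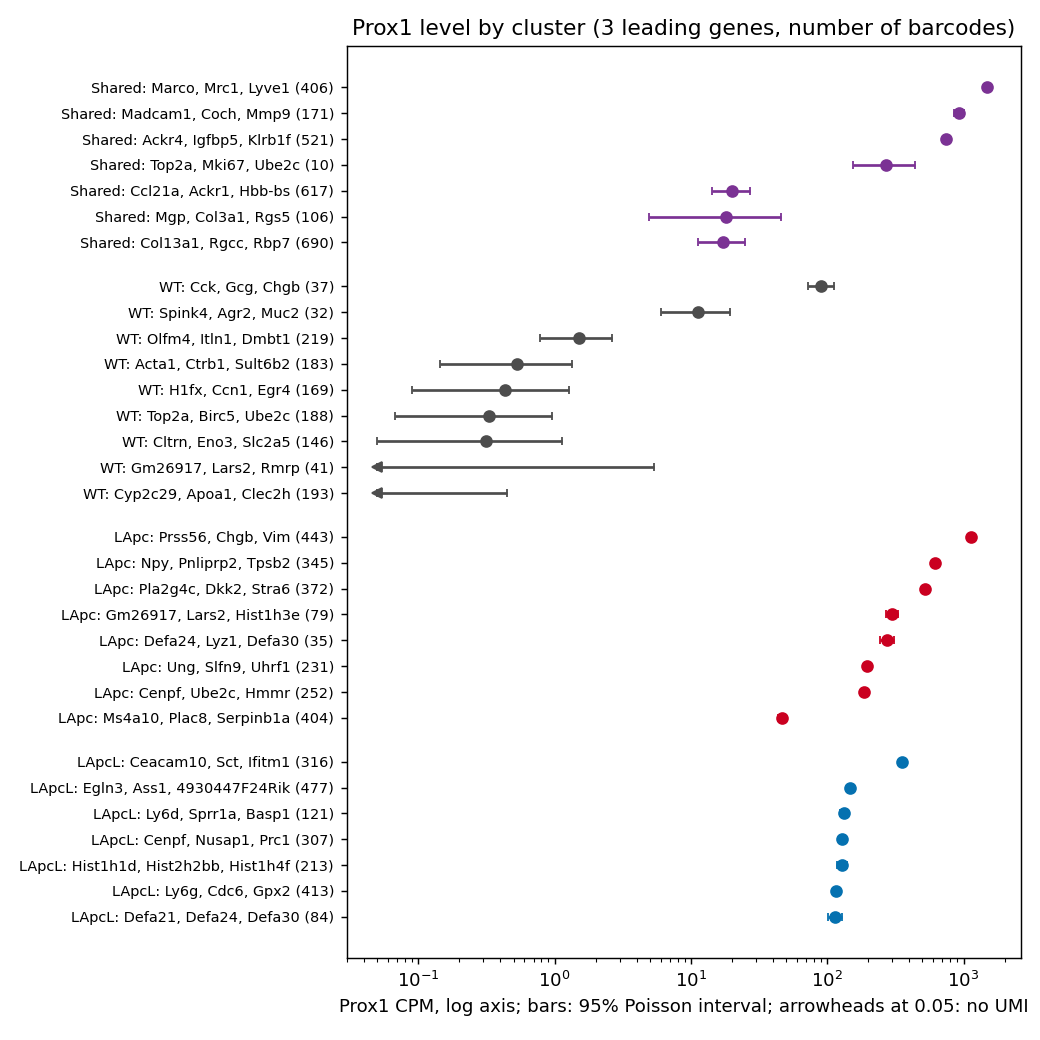
Prox1 level in CPM on a log axis for 7 of the 8 shared clusters and all clusters of the other sets, with exact 95% Poisson intervals; each cluster is named by its 3 leading genes and its number of barcodes, and arrowheads mark clusters with no Prox1 UMI. LApc clusters span 46.3 to 1136 CPM and LApcL clusters 115 to 353 CPM, while the WT enteroendocrine-like cluster (90.3 CPM) stands apart from the other WT clusters.

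The genes that varied most like Prox1 across cells were ranked by Pearson r of log2(count + 1) at equal depth, among genes seen in at least 5% of cells. The cells of a set share a library, so r is a description. In LApc (2161 cells, 9879 genes) the highest was Nkd1, a negative feedback gene of Wnt signaling, with r of 0.75. It was followed by Ifitm1 (0.70), an interferon-induced membrane protein gene, Vim (0.65), the intermediate filament of mesenchymal cells, Tcf4 (0.64), which encodes the E-protein E2-2 and is not the Wnt factor Tcf7l2, and Notum (0.63), which encodes a secreted Wnt-inactivating enzyme. Slc30a2 (0.60), Aspscr1 (0.58) and Ifitm2 (0.55) completed the 8. The lowest were Lgals4 (-0.73), a lectin of differentiated enterocytes, 2200002D01Rik (-0.67), Phgr1 (-0.63) and Gpx2 (-0.62). The median over all genes was 0.02.

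In LApcL (1931 cells, 9859 genes) r was weaker but 4 of the same 8 genes were at the top. Ifitm1 (0.40) and Nkd1 (0.35) came first, then Sox4 (0.31), a transcription factor of progenitor cells, Pdgfa (0.31), Vim (0.29), Tcf4 (0.28), Sbspon (0.27) and Ptprt (0.27). The lowest were Phgr1 (-0.27), 2200002D01Rik (-0.24), Anxa3 (-0.24) and Ybx3 (-0.23). When each gene was centred on its cluster means, an alternative added after the data had been seen, r with Nkd1 was 0.52 in LApc and 0.32 in LApcL. With Vim it was 0.43 and 0.23.

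In WT (1208 cells, 27 Prox1-positive) the leading genes were Sct (0.56), which encodes the hormone secretin, the calcium channel gene Cacna1a (0.55), Fxyd3 (0.54), Hepacam2 (0.52), Kctd12 (0.49), Prnp (0.49), 5330417C22Rik (0.49) and Bcam (0.44). The lowest were Dbi (-0.35), Oat (-0.31), Krt19 (-0.27) and Gsta1 (-0.26). In the shared barcodes (2835 with at least 1000 UMIs) they were Cemip2 (0.42), the hyaluronan receptor gene Lyve1 (0.42), Cd55 (0.39), Tnc (0.37), Marco (0.37), F8 (0.36), Igfbp4 (0.34) and Nfat5 (0.34), and the lowest were Tmsb4x (-0.44), Igfbp7 (-0.40), Ctla2a (-0.34) and Ly6c1 (-0.34), the last a capillary marker. After centring on cluster means the r of all 8 shared genes fell to between -0.04 and 0.10.

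Genes of the Wnt pathway were read beside Prox1 from a list of 20 Wnt targets and feedback genes. In LApc against WT, 18 of 20 were at least 2-fold higher and 0 lower, with a median log2 ratio of 3.30 against 0.50 over all 9055 genes. Of all genes, 24.0% were at least 2-fold higher and 9.81% lower. With median-of-ratios scaling the median over all genes moved by -0.40. Among the genes past 2-fold in either direction, the higher ones went from 71.0% to 49.5%. Under this scaling 16 list members were at least 2-fold higher, beside 14.2% of all genes. In LApcL against WT 17 of 18 members at or above 10 CPM were at least 2-fold higher, and 0 were lower, beside 26.8% and 10.4% of all genes. In LApcL against LApc 1 of 20, Lgr5, was at least 2-fold higher, beside 1.28% of all genes, and 5, Nkd1, Notum, Ephb3, Wif1 and Dkk3, were at least 2-fold lower, beside 3.21%. The median was -0.38 against 0.05 over all 8726 genes.

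In that comparison Prox1 differed in the direction of Nkd1 and Notum and opposite to Lgr5. Nkd1 had 0.368 CPM in WT cells, 527 CPM in those of LApc and 179 CPM in those of LApcL. Notum had 0.389, 302 and 73.3 CPM. Lgr5, the stem cell receptor gene, had 13.9, 34.7 and 89.98 CPM, and its log2 ratio for LApcL against LApc was 1.35 (1.29 to 1.41), against -1.56 (-1.58 to -1.53) for Nkd1 and -2.03 (-2.07 to -1.99) for Notum.

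The list genes were also read from cell to cell. Over LApc cells r with Prox1 was positive for 13 of the 20 list genes, beside 60.7% of all 9879 genes, so the list as a whole was near the background. The highest were Dkk3 (0.51), Lef1 (0.39), Sp5 (0.37) and Axin2 (0.34), after Nkd1 and Notum. Among the 7 negative ones were Ccnd1 (-0.47), Myc (-0.22), Ascl2 (-0.21), Cd44 (-0.14) and Lgr5 (-0.14). In LApcL, r was positive for 15 of 19 list genes, beside 66.8% of all genes. It was 0.09 with Lef1, 0.11 with Axin2, -0.16 with Ccnd1, 0.05 with Ascl2 and 0.07 with Lgr5. The sign differed between genotypes for Lgr5, Ascl2, Sox9, Ephb2 and Tcf7.

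**Figure D4:**
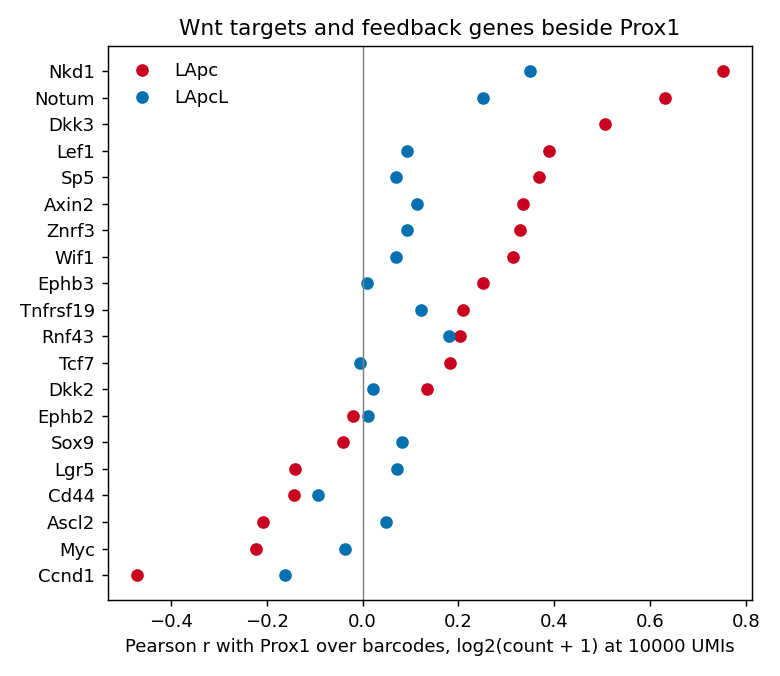
Pearson r with Prox1 over deep cells at 10000 UMIs (horizontal axis) for 20 Wnt targets and feedback genes (rows) in LApc and LApcL; genes under 5% of cells in a set have no point. Nkd1 and Notum have the highest r in both, Ccnd1 the lowest in both, and most LApcL values lie nearer to 0.

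Cells were also grouped by their Prox1 count at equal depth. These are the cells and counts that gave r, so the groups restate that co-variation in CPM and are not separate evidence. In LApc, 690 cells had 0 Prox1 UMIs, 595 had 1 to 4 and 876 had 5 or more. Across these groups Nkd1 stood at 118, 615 and 1013 CPM, Notum at 55.9, 321 and 651 CPM and Lef1 at 29.3, 80.7 and 127 CPM. Lgr5 stood at 47.0, 38.5 and 23.2 CPM and Ascl2 at 85.8, 65.0 and 39.8 CPM. Cells with Mki67, a marker of dividing cells, made up 38.7%, 26.1% and 15.2%. Tnfrsf19, another stem cell marker, stood at 35.9, 74.3 and 80.9 CPM, and Sox9 at 212, 154 and 191 CPM. LApc cells rich in Prox1 thus had more Nkd1, Notum, Lef1 and Tnfrsf19 RNA, less Lgr5 and Ascl2 RNA and a smaller share of Mki67-positive cells than those without it.

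In LApcL the groups held 842, 854 and 235 cells. Nkd1 stood at 143, 214 and 392 CPM, Notum at 58.0, 86.5 and 174 CPM, and Lef1 at 52.7, 54.4 and 80.0 CPM. Lgr5 stood at 92.5, 106 and 127 CPM, an order opposite to that in LApc. Mki67-positive cells made up 45.2%, 45.6% and 34.5%. Among cells with 0 Prox1 UMIs, Nkd1 was found in 36.7% (33.1 to 40.4) of those from LApc and 61.2% (57.8 to 64.5) of those from LApcL, and Notum in 25.1% (21.9 to 28.5) and 39.7% (36.3 to 43.1). In these cells LApcL thus had the larger shares, whereas at 5 or more Prox1 UMIs the Nkd1 level was 1013 CPM in LApc against 392 CPM in LApcL.

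**Figure D5:**
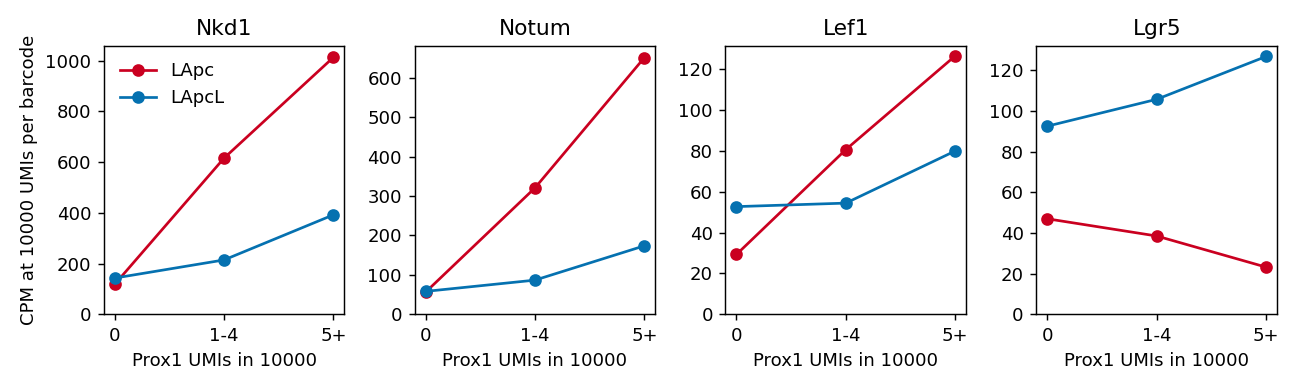
Level in CPM (vertical axes, from 0) of Nkd1, Notum, Lef1 and Lgr5 in deep LApc and LApcL cells grouped by Prox1 UMIs at 10000 UMIs per cell (0, 1 to 4, 5 or more). Nkd1, Notum and Lef1 are higher in the groups with more Prox1 in both genotypes, whereas Lgr5 goes from 47.0 to 23.2 CPM in LApc and from 92.5 to 127 CPM in LApcL.

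The LApc excess of Prox1 over LApcL was compared between kinds of cells. In cells without Mki67 at equal depth, Prox1 stood at 593 CPM for LApc and 201 CPM for LApcL, a log2 ratio for LApcL against LApc of -1.55 (-1.62 to -1.49). In cells with Mki67 it was 274 and 150 CPM, a ratio of -0.87 (-0.97 to -0.76). The positive shares were 73.7% for LApc and 57.3% for LApcL without Mki67, and 51.9% and 55.2% with it. The log2 ratio was likewise farther from 0 in cells with Lef1 (-1.70) than without (-1.12) and in cells without Lgr5 (-1.68) than with (-1.05). The same cells are split each time and the kinds overlap, so these values cannot tell to which kind a larger excess is particular.

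Prox1 was higher in cells with Lef1 than in cells without it, in both genotypes. In LApc, Prox1 was 710 CPM in 1000 cells with a Lef1 UMI and 340 CPM in 1161 without, with 85.3% and 53.2% positive. In LApcL it was 218 CPM in 696 cells with Lef1 and 156 CPM in 1235 without, with 59.6% and 54.6% positive. Lef1 itself stood at 0.961, 72.0 and 47.8 CPM in WT, LApc and LApcL, and Apc at 20.0, 88.5 and 95.4 CPM. These 3′-end counts need not cover the deleted exons, so they do not check the deletions, and Lef1 RNA in LApcL says nothing of Lef1 protein.

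Other lymphatic genes were read beside Prox1 in LApc and LApcL. Of a list of 16, 4 reached 10 CPM in LApc or WT, beside 9055 of all 32285 genes, which is a like share. Nr2f2, a nuclear receptor and Prox1 partner that is not limited to lymphatic cells, was the highest of them in LApc and LApcL. It stood at 18.6, 22.9 and 30.2 CPM in the order WT, LApc and LApcL. Its log2 ratio for LApc against WT turned from 0.287 to -0.111 with median-of-ratios scaling. Tbx1, a T-box factor, stood at 0.143, 20.3 and 0.0497 CPM in the same order, and Nrp2, a Vegfc co-receptor, at 1.55, 17.3 and 3.79 CPM, so Tbx1 was near 0 in LApcL. Lyve1 was at 0.572 CPM in LApc and 52.3 CPM in WT, where Pdpn and Reln had 0 UMIs. Angpt2 (7.91 CPM) and Fgfr3 (6.06 CPM) were below this limit in LApc. Flt4 (0.0880 CPM), Mmrn1 (0.110) and Reln (0.0330) were near 0 in LApc. All 9 lymphatic markers together summed to 1.68 CPM in LApc and 2.02 in LApcL, against 3318 CPM in lymphatic-like barcodes. The other shared barcodes had 3203 CPM, of which Ccl21a made up 3108 CPM, so this sum by itself does not tell lymphatic cells from them. In lymphatic-like barcodes, 11 of the 16 listed genes were at least 2-fold higher than in the other shared barcodes and 3 lower (Sox18, Ccl21a and Fgfr3), beside 13.2% and 7.62% of 8919 genes. Several list members also served to define these clusters.

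The 7 stem cell markers read with Prox1 included 6 at least 2-fold higher in LApc than in WT, all but Prom1, beside 24.0% of all genes, and 4 with median-of-ratios scaling, beside 14.2%. In LApcL against LApc, 1 (Lgr5) was at least 2-fold higher and 0 lower, beside 1.28% and 3.21% of all genes. From cell to cell in LApc, r with Prox1 was 0.40 for Cd24a, 0.27 for Mex3a, 0.21 for Tnfrsf19, 0.05 for Smoc2, -0.04 for Sox9, -0.09 for Prom1 and -0.14 for Lgr5. In LApcL all 7 were positive, from 0.07 for Lgr5 to 0.23 for Smoc2, beside 66.8% of all 9859 genes. Of 6 genes for Prox1 cofactors, 5 reached 10 CPM in LApc or WT, with 1 at least 2-fold higher (Kdm1a, a histone demethylase gene) and 1 lower (Nr5a2, a nuclear receptor gene), beside 24.0% and 9.81% of all genes. With median-of-ratios scaling 0 were higher and 2 lower, beside 14.2% and 14.5% of all genes. In LApcL or LApc 4 reached 10 CPM with none past 2-fold. Prox2 (ENSMUSG00000042320, chromosome 12, 85086385 to 85110759), the other prospero-type homeobox gene, had 19, 62 and 43 UMIs in WT, LApc and LApcL, or 0.389, 0.682 and 0.534 CPM, and the intervals of all 3 overlapped.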

How the data were processed

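Droplet-based 10x 3′ libraries of 3 samples were deposited as raw UMI counts per gene and barcode, 1 library per genotype. The authors aligned reads to the mouse build mm10 (GRCm38) and kept barcodes called as cells. The file headers name Cell Ranger 6.0.1, whereas the study's methods and the submitters' processing notes name 2.1.1. Whether counting used strand is not given in the sources used here, and without it Prox1 and Prox1os reads cannot be told apart where they overlap. From the deposited counts, UMIs were summed over the barcodes of a set and scaled to CPM, with a pseudocount of 1 CPM in log2 ratios, which understates the change of low genes. Genes with at least 10 CPM in either set were compared, without mitochondrial genes. Thinning drew UMIs without replacement (seed 1). Clusters were made per set with scanpy 1.11.5 (2000 variable genes, 20 components, 20 neighbours, Leiden resolution 0.5), leaving out Prox1, Prox1os and mitochondrial genes. The study left out barcodes with extreme gene numbers, tried here as an alternative, and identified potential doublets with scDblFinder, which was not run here. Doublets were left in here, and the highest Scrublet scores were removed as an alternative. The values of 1 cluster of shared barcodes are not reported here, though its barcodes count in all totals. No test was made. Intervals are at the 95% level, and a count of 0 was read as up to 3 counts. Prox1, its gene lists and the markers were chosen with earlier results of these data known. The genes named were the 8 of highest r and the 4 of lowest r in each set, the targeted genes Lef1 and Apc, Prox2 and list members. Leading genes of clusters, Prox1os, Chga, Chgb, Mki67 and Pecam1 were named after their values were seen. The criterion for lymphatic-like clusters and the centring of r on cluster means were also chosen after seeing the data. The intervals were tried on counts simulated with Poisson error, with 200 genes changed 2-fold. The true ratio lay inside its interval in 95.3% of 8322 genes (LApc against WT), 95.2% of 8438 (LApcL against LApc) and 95.1% of 8311 (LApcL against WT). The intervals assume this same error, so the trial checks their calculation only. Prox1 counts varied more than this between cells, which the trial did not cover. Promoters came from RefSeq (GRCm38.p6) and gene positions from GENCODE. Depths ran from 10018 to 309525 UMIs in the deep cells. With 1 library per genotype, the spread between replicates is unknown.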

Additional observations from a re-analysis of the deposited data

Results flagged for a closer look

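Prox1 was also present in data outside the comparisons above, the barcodes of 1 library only that were shallower than 10000 UMIs or over the mitochondrial limit. It stood at 322 CPM (314 to 329) in 5300 such LApc barcodes and 127 CPM (122 to 131) in 6838 LApcL barcodes, against 3.09 CPM (2.49 to 3.79) in 6892 WT barcodes. The order of the genotypes was that of the deep cells, at median depths of 2946.5, 2748.5 and 3325 UMIs.

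The antisense gene Prox1os was above its WT level in the deep cells of both Apc genotypes. WT had 0 UMIs, which allows up to 0.0614 CPM (3 counts over the set), LApc had 894 UMIs or 9.84 CPM (9.20 to 10.5), and LApcL had 128 UMIs or 1.59 CPM (1.33 to 1.89). These levels were 160-fold and 25.9-fold that WT limit of 3 counts. The exact Poisson upper limit for 0 WT UMIs was higher, at 0.0754 CPM, so these folds are not lower bounds. LApcL was lower than LApc by 6.19-fold (5.14 to 7.51), against 2.80-fold for Prox1. Per 100 Prox1 UMIs there were 2.31 (2.16 to 2.47) Prox1os UMIs in LApc, 1.04 (0.869 to 1.24) in LApcL and 0.356 (0.184 to 0.623) in lymphatic-like barcodes, where 12 UMIs were found. In LApc cells with 0, 1 to 4 and 5 or more Prox1 UMIs, 0.580%, 9.58% and 16.7% held a Prox1os UMI. Whether these UMIs are antisense RNA or reads of Prox1 itself was not tested.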

How the results depend on the processing

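No paired analysis was possible because each genotype had 1 library. For the same reason no replicate could be left out. The log2 ratio of Prox1 for LApc against WT was 6.93, and it was 7.36 with a pseudocount of 0.1 CPM, 5.13 with 10 CPM, 6.38 at a mitochondrial limit of 10%, 6.66 with barcodes of other libraries left in, 6.73 as a mean over cells and 6.59 with median-of-ratios scaling. LApcL against WT was 5.46, and under the same settings 5.88, 3.70, 4.90, 5.18, 5.23 and 5.14. With this scaling the median over all genes moved by -0.37 in LApcL against WT and the higher share of genes past 2-fold went from 72.1% to 51.7%. LApcL against LApc was -1.48, and it was -1.43 with a pseudocount of 10 CPM, -1.53 with the highest Scrublet scores removed and -1.44 with median-of-ratios scaling. The difference in positive share (LApcL minus LApc, -11.7 points) was -18.2 at 5000 UMIs, -24.5 for at least 2 Prox1 UMIs and 0.899 (-1.63 to 3.41) without thinning, which reversed it. Lymphatic-like against other shared barcodes, 5.58, was 4.96 by LApc counts, 5.05 by LApcL counts and 5.09 with a pseudocount of 10 CPM. It was 5.78 or 5.80 when the cluster of 10 dividing barcodes was counted in or left out, alternatives added after seeing the data. At 500 UMIs the positive shares were 13.9% (shared), 0.0828% (WT), 19.5% (LApc) and 8.96% (LApcL), and by LApcL counts at 1000 UMIs the shared share was 22.5%. Of the 8 genes most like Prox1 in shared barcodes, 5 were also among the first 8 by Spearman rho, 3 without thinning and 3 after centring. In WT 4 were without thinning and 2 after centring, and in LApcL 5 were without thinning. After centring r was -0.036 for Cd55, -0.0025 for Hepacam2 and -0.0026 for Prnp. The causes of these shifts were not tested. The other 30 values of the main comparisons stayed within their intervals or within 1.5 times the count. Depth limits what the shared barcodes can show, since a barcode with 1000 UMIs detects only abundant RNA.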
